A study of Homo sapiens with 20 samples.

Results

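U2AF2 was followed by iCLIP in 6 libraries of a series of 20 samples: 3 from control cells and 3 from cells overexpressing the splicing repressor hnRNPA1. In iCLIP, ultraviolet light crosslinks a protein to the RNA it touches, the protein is immunoprecipitated, and the attached RNA is sequenced. Both conditions used TREX FLP-In 293T cells, a derivative of the human embryonic kidney line HEK293T. The overexpressing cells carried an inducible T7-tagged hnRNP A1 and had been selected with hygromycin, and the control cells, labelled without overexpression, had been selected with zeocin. All cells had also been under blasticidin, with selection lasting 3 days, and all had tetracycline for 24 h, so the drug that induces the transgene was present in the controls too. Nuclear extracts went into the immunoprecipitation. The labels do not say whether the 3 libraries of a condition came from separate cultures, whether the inducible line was 1 clone, or how far hnRNPA1 rose, so the p-values measure the spread between these libraries, which may be technical. The rest of the series, iCLIP of hnRNPA1 and SRSF1 and RNA-seq of polyadenylated RNA, entered only where named.

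U2AF2 is the large subunit of the U2 auxiliary factor. It binds the pyrimidine-rich tract that precedes the AG of a 3' splice site, next to its partner U2AF1 at the AG and SF1 at the branch point, and so helps to bring the U2 snRNP to the intron. The study asks whether raising hnRNPA1 moves U2AF2 to other RNA, with RNA from Alu elements as its stated interest. No repeat annotation of hg19 was used here, so the values below are by gene and by site and not by repeat class.

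The members are all genes with a deposited U2AF2 peak of at least 6 reads in each of the 6 libraries. These were 6795 of the 16542 genes with such a peak in any library. The value of a gene is its reads in peaks after scaling for library size, called normalised reads below. It is not divided by gene length, so levels are compared between conditions and not between genes. A log2 change is overexpression minus control on the scale log2(normalised reads + 1). A gene that fell or rose is one with an adjusted p below 0.05 (limma, Benjamini-Hochberg over all 6795 genes).

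The conditions differed in depth and in the whole profile of the libraries, and these differences stand before every result. Control libraries held 34777, 38517 and 53636 peaks with 702563, 783212 and 1158060 reads, and overexpression libraries held 111306, 101723 and 143381 peaks with 2701476, 2317615 and 3291468 reads. The smallest peak that could be seen, of 6 reads, equalled 9.97 to 17.0 normalised reads in control and 2.14 to 2.96 with overexpression. A fall could therefore be followed to a lower level than a rise could be followed from. Log2 levels of the 6795 genes correlated between control libraries with r of 0.85 to 0.86, between overexpression libraries with 0.94 to 0.97, and across conditions with 0.41 to 0.49. These genes share their libraries and depths, so r is a description. The median SD of log2 levels was 0.43 in control and 0.14 with overexpression.

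**Figure D1:**
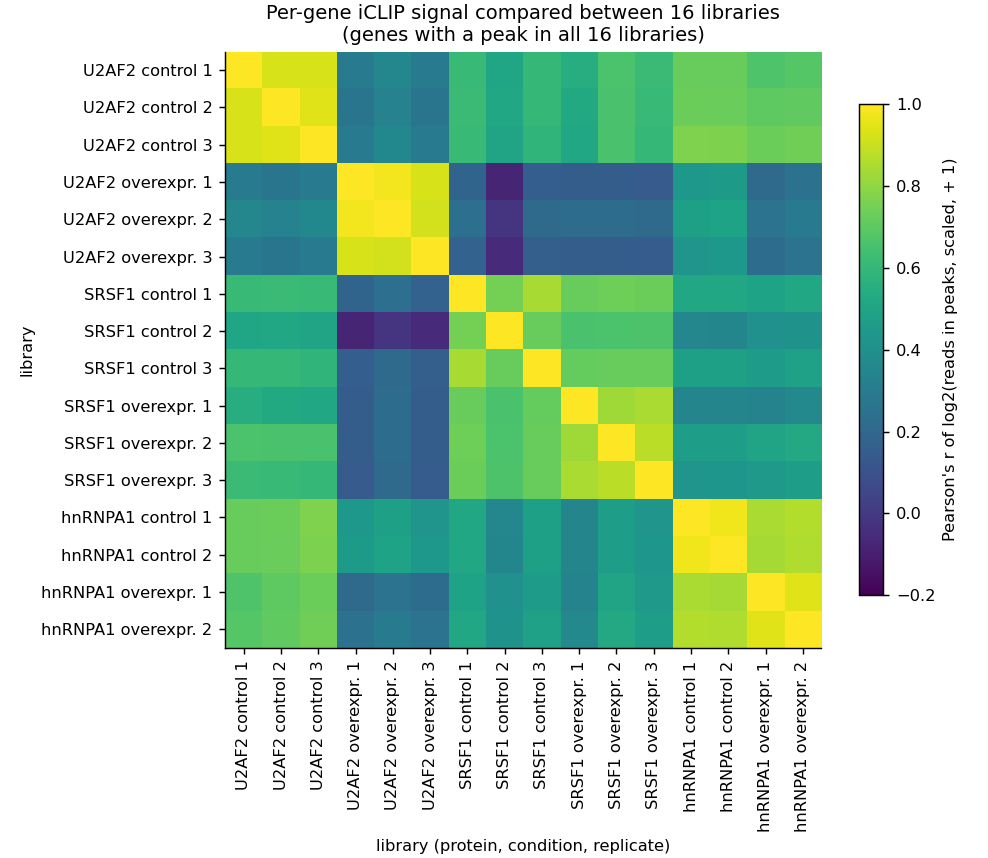
Each square is Pearson's r between 2 of the 16 iCLIP libraries over the 1345 genes with a peak in all of them, from the log2 signal per gene, coloured from -0.2 to 1. The 3 U2AF2 overexpression libraries correlate with each other at 0.92 to 0.98, with the hnRNPA1 control libraries at 0.43 to 0.49 and with the U2AF2 control libraries at 0.27 to 0.36, while the U2AF2 control libraries reach 0.72 to 0.77 with the hnRNPA1 control libraries.

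Set against the other proteins, the U2AF2 overexpression libraries were closer in gene profile to the hnRNPA1 control libraries than to the U2AF2 control libraries. Over the 1345 genes with a peak in all 16 iCLIP libraries, r between U2AF2 control and U2AF2 overexpression libraries was 0.27 to 0.36. Between U2AF2 overexpression and hnRNPA1 control libraries it was 0.43 to 0.49, with hnRNPA1 overexpression libraries 0.21 to 0.30, and with SRSF1 libraries -0.076 to 0.24. It was 0.50 to 0.66 between U2AF2 control and SRSF1 libraries of either condition, and 0.67 to 0.77 between U2AF2 control and hnRNPA1 libraries. For hnRNPA1 itself, control and overexpression libraries correlated with r of 0.84 to 0.86, and for SRSF1 with 0.66 to 0.73. Of the peaks of a control library, 34.8% to 49.7% overlapped a peak of another control library and 24.0% to 29.6% one of an overexpression library. Of the peaks of an overexpression library, 59.6% to 67.6% overlapped one of another overexpression library and 12.1% to 18.3% one of a control library. More of them, 24.8% to 27.7%, overlapped a peak of an hnRNPA1 control library, and these held 51.6% to 60.0% of their reads, against 32.6% to 47.0% of the reads for peaks of U2AF2 control. In the other direction, 17.2% to 17.8% of the peaks of an hnRNPA1 control library overlapped one of a U2AF2 overexpression library, fewer than the 24.0% to 29.6% of U2AF2 control. Of the U2AF2 overexpression peaks, 2.73% to 5.32% overlapped one of an hnRNPA1 overexpression library. These shares were not adjusted for the number of peaks, and a library with more peaks is overlapped more often. The hnRNPA1 control libraries held 131778 and 121821 distinct peaks of at least 6 reads, and the U2AF2 control libraries 34055, 37811 and 52824. The hnRNPA1 overexpression libraries held 42340 and 43523. Since all 3 libraries of each condition sit together, a change with hnRNPA1 and a difference between the 2 sets of libraries cannot be told apart.

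The leading genes held a smaller share of the U2AF2 signal with overexpression. The 100 genes with the most reads held 38.2%, 37.0% and 32.2% of the reads in peaks in control libraries and 10.2%, 11.1% and 8.41% with overexpression (35.8% ± 3.2 and 9.91% ± 1.37; SD, n = 3 each). The conditions did not overlap, and the exact permutation p was 0.1, the smallest that 3 against 3 allows. The 10 leading genes held 19.5% ± 3.3 and 2.92% ± 1.11. Long non-coding RNA held 18.6% ± 3.4 and 9.39% ± 1.00 of the reads, and snoRNA genes, which encode small guides of RNA modification, held 0.678% ± 0.116 and 0.0553% ± 0.0083. Genes with a peak went from 9725 ± 968 to 13430 ± 789, and peaks per gene from 4.31 ± 0.57 to 8.81 ± 1.08, and all 7 such measures, peak width included, had an exact permutation p of 0.1 and 0.1 after Benjamini-Hochberg adjustment. With a minimum of reads per peak that grew with depth, both went the opposite way: genes with a peak were 8394 and 7713 (exact p = 0.2) and peaks per gene 3.85 ± 0.09 and 3.38 ± 0.13 (exact p = 0.1). The share of the 100 leading genes was then 38.0% and 12.9%. With that minimum the adjusted p was 0.14 for 5 of the 7 measures, 0.233 for genes with a peak and 0.4 for peak width.

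Most of the 6795 genes changed, in near-equal numbers each way. U2AF2 signal fell in 2145 genes, which is 31.6% of those tested, and rose in 2052, or 30.2%, so 61.8% were called. Fewer U2AF2 contacts on a gene and less RNA of that gene cannot be told apart from these values. In 2307 genes (34.0%) every overexpression library lay below every control library, and in 2428 (35.7%) every one lay above. With total reads as the scale the median log2 change of all genes moved from 0.02 to 0.80, and 3263 genes rose and 1340 fell, so the share of calls that were rises went from 48.9% to 70.9%. Quantile normalization moved the median to 0.17. The genes that fell had a median of 204 normalised reads in control and 47.0 with overexpression, and those that rose had 62.4 and 161. The genes that were not called had 72.3 and 73.3, which the scaling and the choice of genes without a call bring close together. Of the 1327 genes with the highest mean log2 level of 5 equal groups, 47.9% fell and 29.9% rose. In the lowest group 40.5% fell and 10.5% rose. By gene length, the longest of 5 groups (131.6 kb or more) had 36.6% lower and 21.5% higher, and the shortest (up to 18.62 kb) had 31.1% lower and 37.5% higher.

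**Figure D2:**
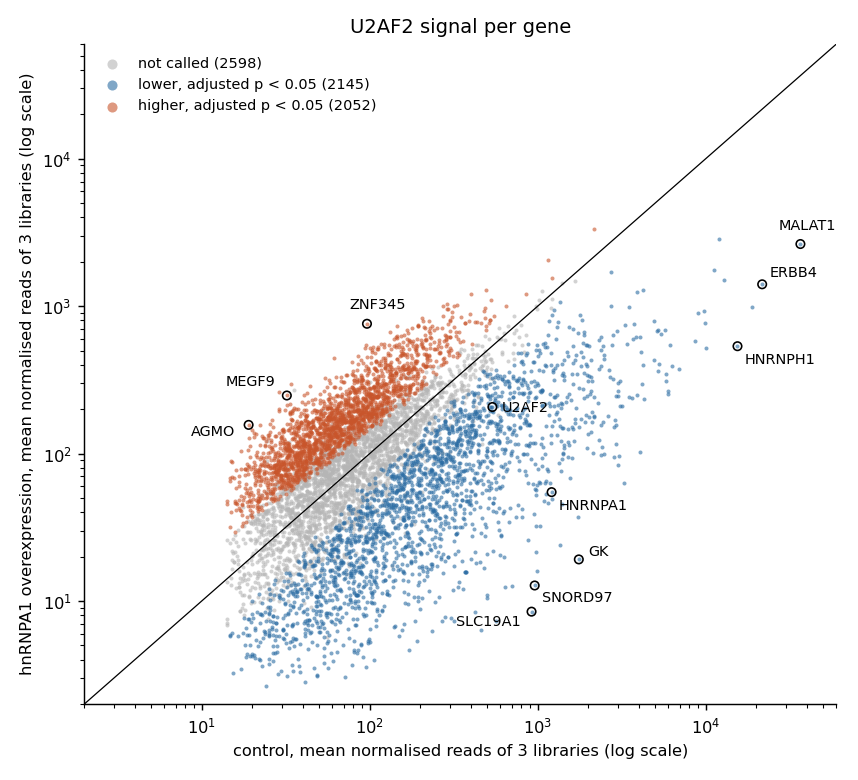
Each point is 1 of the 6795 genes, with its mean of 3 control libraries on the x axis and of 3 overexpression libraries on the y axis, both in normalised reads on log scales with the line of equality. The 2145 genes that fell (blue) include nearly every gene at the right-hand end, and the 2052 that rose (orange) lie mostly further left.

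U2AF2 signal fell on every measured small nucleolar RNA gene. These RNAs are cut from introns and guide methylation or pseudouridylation of ribosomal and spliceosomal RNA. All 17 snoRNA genes with a peak in every library fell, with a median log2 change of -4.00, against a background of 31.6% of all genes. Gene types were looked at after the values were seen. The sequences of the 3 named snoRNA genes with the steepest falls, all C/D box snoRNAs, are given from GENCODE release 29, 5′ to 3′, with the longest unbroken run of pyrimidines (C or T, transcript strand) in capitals, because runs of this kind are what U2AF2 is known to bind.
SNORD97: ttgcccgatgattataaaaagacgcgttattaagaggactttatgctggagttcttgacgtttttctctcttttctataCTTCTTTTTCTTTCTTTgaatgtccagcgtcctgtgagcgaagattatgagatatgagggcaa
SNORD110: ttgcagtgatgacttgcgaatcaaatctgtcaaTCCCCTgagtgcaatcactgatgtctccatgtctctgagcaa
SNORD62A: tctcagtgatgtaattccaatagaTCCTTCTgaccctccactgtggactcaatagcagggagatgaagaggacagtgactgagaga
The run of SNORD97 is 17 nt long and starts at base 80 of 142, and a run at least as long is in 0.53% of the 943 snoRNA transcripts of the annotation. The runs of SNORD110 and SNORD62A are 6 and 7 nt long, which 69.0% and 51.6% of them reach. The place of the reads within these RNAs was not mapped, because no hg19 sequence was used here.

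SNORD97 (ENSG00000238622; hg19 chromosome 11, 1 peak site at 10823015 to 10823062, minus strand) held 1019, 1121 and 739 normalised reads in control and 10.4, 24.7 and 3.21 with overexpression, a log2 change of -6.47 ± 0.60 (SE, adjusted p = 9.52e-05). SNORD110 (ENSG00000221116; chromosome 20) held 356, 303 and 288 against 7.86, 11.4 and 2.85 (-5.39 ± 0.44). SNORD62A (ENSG00000235284; chromosome 9) held 436, 399 and 294 against 15.3, 28.2 and 3.57 (-4.84 ± 0.63), and its near-identical copy SNORD62B was at -4.76, so reads may be split between them. In all of these the lowest control library was at least an order of magnitude above the highest overexpression library, and overexpression replicate 3 was the lowest of the 6. The smallest falls in the class were SNORA68 at -2.57 and SNORA3B at -2.57, both of the H/ACA box type. On the scale of total reads 16 of the 17 fell, and with peaks listed under more than 1 gene left out, 14 of 14 fell. Stricter minima left few to test: with peaks of at least 12 reads, 7 of 7 fell. With a minimum of reads that grew with depth 2 of 2 fell, and 0 had at least 20 normalised reads in every library.

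Spliceosomal RNA genes went the same way, although many are multi-copy and near-identical, which makes the reads of any 1 copy uncertain. Of 22 genes annotated as snRNA, 21 fell and 0 rose, with a median log2 change of -2.86, against 31.6% lower over all genes. This gene type, too, was looked at after the values were seen. On total reads 18 of 22 fell, and with peaks of at least 12 reads 17 of 17. With a minimum of reads that grew with depth 12 of 13 fell, and 1 gene could be tested at 20 normalised reads in every library. RNU1-1, a gene of the U1 snRNA that pairs with 5' splice sites, held 303, 189 and 168 normalised reads in control and 20.7, 28.2 and 15.0 with overexpression (-3.30 ± 0.34). RNU5A-1, for the U5 snRNA that holds the exons together during splicing, held 198, 181 and 126 against 31.9, 38.5 and 15.0 (-2.60 ± 0.39). RNU6-9, for the U6 snRNA of the catalytic centre, held 351, 368 and 241 against 41.8, 61.8 and 17.1 (-3.11 ± 0.45). The conditions did not overlap in any of these, and 34.0% of all genes also lay wholly lower with overexpression. The 1 snRNA gene not called, RNU4-82P, a U4 pseudogene copy, had -0.13 ± 0.38.

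Among antisense genes more rose than fell. These are non-coding genes that lie opposite a coding gene. Whether the authors' assignment of reads used strand is not given in the sources used here. The deposited peaks carry a strand, but it was not checked against that of the gene. Reads of an antisense gene and of its coding partner were therefore not told apart. Of 190, 118 (62.1%) rose and 24 fell, with a median log2 change of 0.98, and of 149 lincRNA genes 75 (50.3%) rose and 34 fell. Over all genes tested 30.2% rose and 31.6% fell. Among the rises were EMC1-AS1 at 1.81 ± 0.17 and BDNF-AS at 2.66 ± 0.25, chosen after their values were seen. The number of peaks per gene gave 11 antisense genes higher and 18 lower, and 4 lincRNA genes higher and 26 lower. Falls also outnumbered rises by peak number over all 6795 genes, with 1010 lower and 638 higher. ZFAS1, a host gene of C/D box snoRNAs, was an exception to the rises: it held 1590, 1398 and 1132 normalised reads in control and 73.3, 67.2 and 87.7 with overexpression (-4.15 ± 0.18). DLEU2, the host of miR-15a and miR-16-1, held 6103, 5974 and 5158 against 716, 746 and 599 (-3.06 ± 0.13).

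HNRNPA1, the gene of the overexpressed protein, lost nearly all U2AF2 signal. It held 1279, 1204 and 1148 normalised reads in control and 32.7, 59.3 and 72.4 with overexpression, a log2 change of -4.51 ± 0.28 (SE, adjusted p = 1.62e-05). In the deposited peaks (hg19 chromosome 12, plus strand, 54674598 to 54680317) the control signal sat at 4 neighbouring sites between 54678046 and 54679012, each found in all 3 control libraries. The strongest, 318 nt wide at 54678448 to 54678765, held 608, 595 and 532 normalised reads in control and 0, 25.7 and 7.85 with overexpression. Sites at 54678046 to 54678242 and at 54678882 to 54679012 held means of 167 and 240 in control and no called peak in any overexpression library. Overexpression libraries had 14 sites against 7 in control, most of them in 1 library, and none of the 18 sites was found in all 6 libraries. Reads from the RNA of the transgene cannot be told apart from those of the gene itself.

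SRSF1 and U2AF2, the genes of the other proteins studied, fell too. SRSF1, an SR protein that binds exonic enhancers, held 3463, 3782 and 3182 normalised reads in control and 248, 365 and 111 with overexpression (-4.00 ± 0.39, adjusted p = 0.000118), and 3 of its 37 sites were found in all 6 libraries. U2AF2 held 572, 570 and 472 against 167, 231 and 224 (-1.38 ± 0.18, adjusted p = 0.000473), although by peak number it was at -0.19 (adjusted p = 0.64). On U2AF2 the sites changed unequally. The widest site, at chromosome 19, 56173132 to 56173846, went from a mean of 277 to 68.7 normalised reads, and the site at 56167800 to 56167968 from 65.9 to no called peak. The site at 56172554 to 56172783 had means of 22.9 and 31.8. U2AF1 held 1064, 1553 and 1125 against 328, 332 and 288 (-1.96 ± 0.17). SF1 held 2637, 2410 and 2135 against 90.2, 114 and 90.2 (-4.60 ± 0.15). The conditions did not overlap in these genes or in HNRNPA1, and 34.0% of all genes also lay wholly lower with overexpression.

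**Figure D3:**
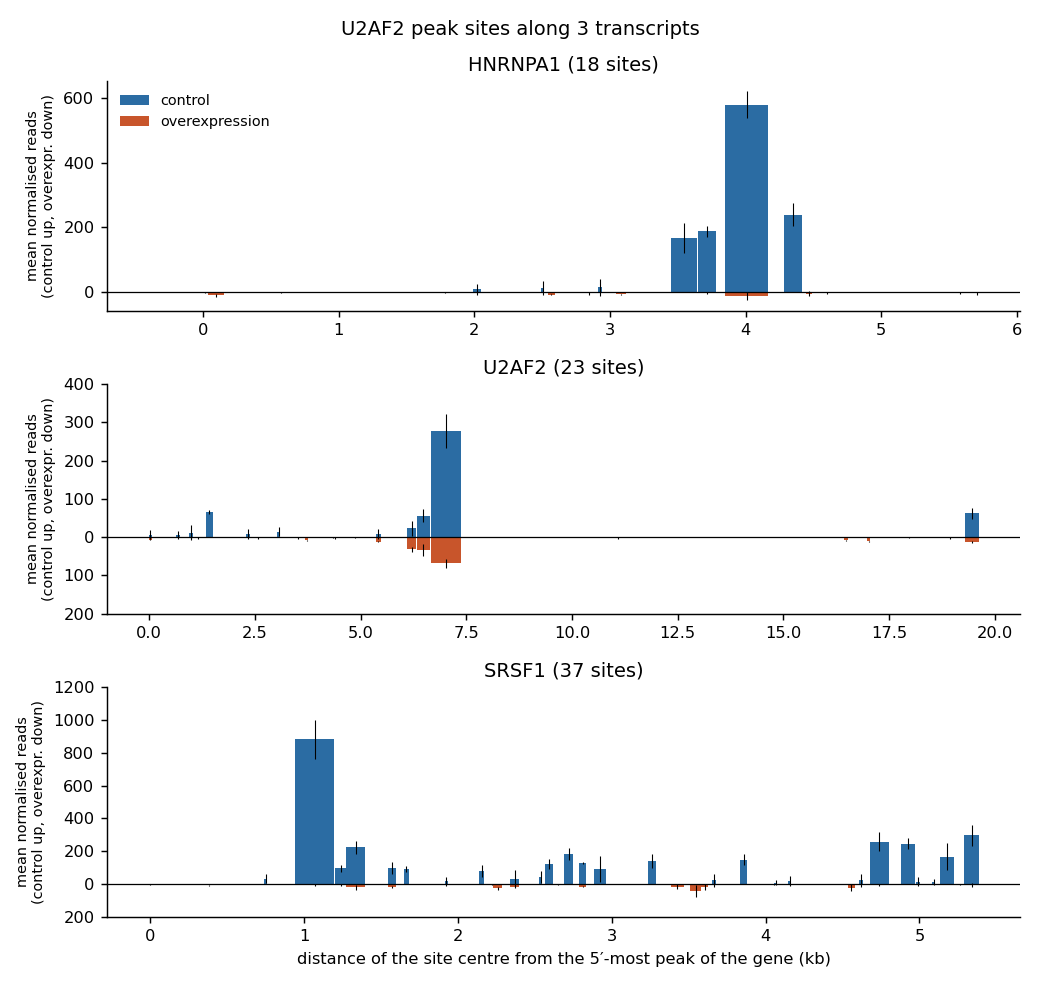
Bars show the mean of 3 libraries (with SD) of normalised reads at each U2AF2 peak site along HNRNPA1, U2AF2 and SRSF1, with control upwards and overexpression downwards, against the distance from the 5′-most peak in kb. On HNRNPA1 the 4 control sites lie together and have almost no counterpart below the line, while on U2AF2 the largest site, with means of 277 and 68.7, is present in both conditions.

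The steepest falls among genes with at least 50 normalised reads in control joined genes of unrelated function. SLC19A1, the reduced folate carrier, held 880, 784 and 1093 normalised reads in control and 12.4, 4.45 and 8.56 with overexpression (-6.68 ± 0.35, adjusted p = 7.56e-06). GK, glycerol kinase, held 1451, 2040 and 1781 against 19.9, 23.7 and 13.9 (-6.46 ± 0.24). The loss was spread over many sites. Of 42 sites on GK, 34 had a peak in a control library and 8 in an overexpression library, and on SLC19A1 these numbers were 10 and 6 of 15, with none in all 6 libraries for either gene. PTP4A1, a tyrosine phosphatase, was at -6.28 ± 0.46, TMED7, a cargo receptor of the early secretory pathway, at -5.94 ± 0.34, and CD164, a sialomucin, at -5.88 ± 0.23. RPL7A, a ribosomal protein gene with snoRNAs in its introns, was at -5.85 ± 0.32, ATP8A1, a phospholipid flippase, at -5.85 ± 0.47, and EIF4A2, a translation initiation helicase that also hosts snoRNAs, at -5.68 ± 0.40. SUMO3, a ubiquitin-like modifier, held 1180, 1090 and 846 against 34.4, 58.8 and 3.21 (-5.63 ± 0.88), so its overexpression libraries differed most among these 10.

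The steepest rises were smaller, from 2.77 to 3.22 on the log2 scale, and most began near the lowest level that control libraries could show. MEGF9, a transmembrane protein with EGF-like domains, held 22.6, 62.1 and 11.6 normalised reads in control and 239, 241 and 264 with overexpression (3.22 ± 0.53, adjusted p = 0.00154). AGMO, an enzyme that cleaves ether lipids, held 17.0, 28.5 and 11.6 against 161, 153 and 156 (3.06 ± 0.35), and its signal came from 1 site at hg19 chromosome 7, 15240124 to 15240198, found in all 6 libraries, beside a second site seen only in the 3 overexpression libraries. PRR11, a proliferation-associated gene, held 28.3, 15.5 and 43.2 against 149, 168 and 474 (3.04 ± 0.53). Its value in overexpression replicate 3 was the highest, with many sites listed in that library alone, and replicate 3 was deposited with versioned gene IDs. The long non-coding RNA CARMN was alike, with 184, 190 and 511 with overexpression (2.96 ± 0.44), and so was ZNF345, a zinc finger gene, with 96.2, 116 and 76.4 in control and 505, 462 and 1311 with overexpression (2.81 ± 0.40). WDR62, a spindle pole protein, rose by 2.82 ± 0.33, the peptidase NLN by 2.82 ± 0.55, the nucleoporin POM121 by 2.81 ± 0.37, the delta-tubulin gene TUBD1 by 2.81 ± 0.26 and MVB12A, a subunit of ESCRT-I, by 2.77 ± 0.26. Absence of overlap between the conditions was required for a gene to be among these 10. By number of peaks per gene 4 of these rises did not pass: AGMO was at 0.29 (adjusted p = 0.32), MVB12A at 0.67 (0.1), MEGF9 at 1.05 (0.074) and CARMN at 0.94 (0.0642).

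**Figure D4:**
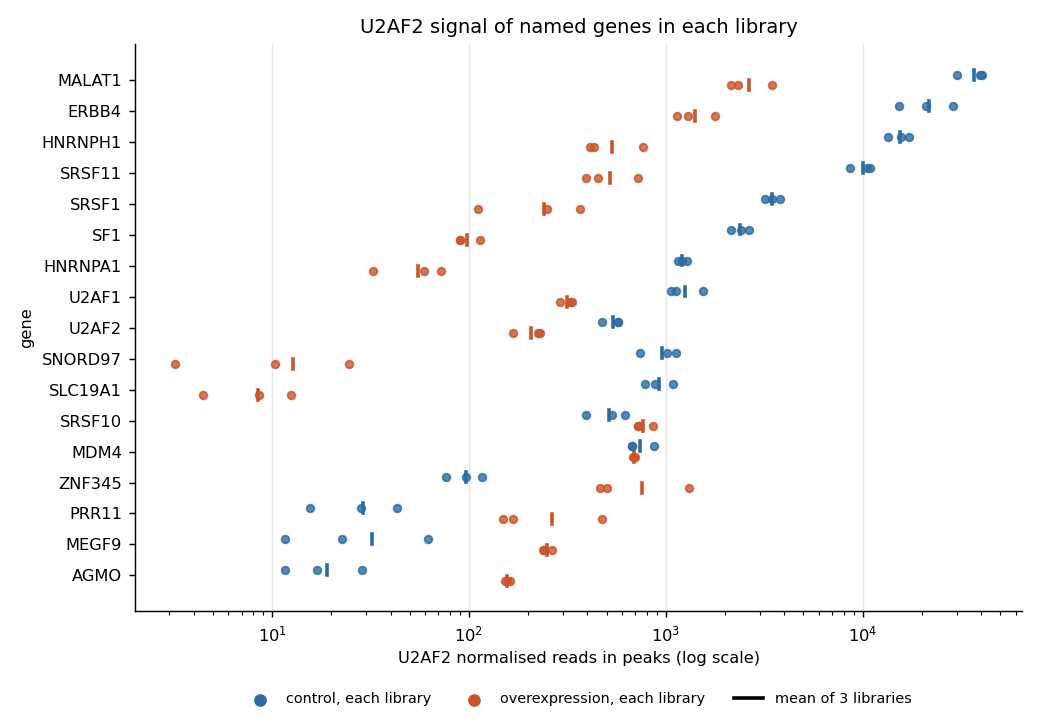
Points are single libraries and short bars the mean of 3, in normalised reads on a log scale, for 17 genes, with control in blue and overexpression in orange. The colours overlap for MDM4 alone, and in the last 4 genes the overexpression libraries lie to the right.

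The 10 genes with the most normalised reads summed over the 6 libraries all fell. Genes high in control lead this sum, so the ranking by itself favours falls. MALAT1, a nuclear speckle RNA, held 39330, 40430 and 30090 normalised reads in control and 2324, 3451 and 2140 with overexpression (-3.81 ± 0.21). NEAT1, the scaffold of paraspeckles, held 13500, 13800 and 11350 against 1356, 1664 and 1470 (-3.10 ± 0.13). Of the 5 measured genes in the list of abundant nuclear non-coding RNAs 4 fell, and OIP5-AS1 rose by 1.35 ± 0.22 but was at 0.35 (adjusted p = 0.451) by peak number. ERBB4, a receptor tyrosine kinase on a very long gene, held 21060, 15300 and 28670 against 1142, 1788 and 1293 (-3.92 ± 0.26). ZNF711, a zinc finger gene of the X chromosome, held 19420, 20170 and 17360 against 916, 1240 and 786 (-4.30 ± 0.18), and HNRNPH1, a splicing regulator that binds G-runs, held 15700, 17190 and 13480 against 432, 763 and 410 (-4.90 ± 0.24). The axon guidance gene ROBO1 (-3.40 ± 0.15), the active zone scaffold gene ERC1 (-2.66 ± 0.12), HNRNPA2B1 (-3.70 ± 0.18) and SRSF11 (-4.30 ± 0.23) followed. SLIT2, a secreted ligand of ROBO1, held 13280, 9011 and 13830 against 2667, 3216 and 2682 (-2.06 ± 0.19), but after quantile normalization it was at 0.77 with adjusted p = 0.0105, the opposite direction, and by peak number at -0.52 (adjusted p = 0.052). After quantile normalization ERC1 was at -0.026 and did not pass (adjusted p = 0.868).

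Most genes of splicing proteins fell, beside 31.6% lower and 30.2% higher over all genes tested. Of 26 listed hnRNP genes 23 were measured, 21 fell and 0 rose, with a median log2 change of -2.65 against 0.02 for all genes. Of 26 SR and SR-like genes 22 were measured, 17 fell and 1 rose (median -3.50). Many of these genes are highly covered: 17 of the 23 hnRNP genes and 18 of the 22 SR genes were in the top 20% by level, where 653 of 1359 genes (48.05%) fell, and 16 and 14 of these fell. SRSF2 held 2852, 3290 and 2642 normalised reads against 81.1, 172 and 95.9 (-4.71 ± 0.27), and LUC7L3, a U1 snRNP-associated protein, was at -3.70 ± 0.16. The SR gene that rose, SRSF10, held 393, 621 and 530 against 860, 726 and 720 (0.60 ± 0.19, adjusted p = 0.0266), whereas by peak number it was at -0.996 with adjusted p = 0.024, the opposite direction. The rise did not pass without control replicate 1 (0.41, adjusted p = 0.0503) or without overexpression replicate 1, 2 or 3 (0.52 to 0.65, adjusted p = 0.0984, 0.0536 and 0.0527). It also missed the threshold without the limma trend, with every deposited peak, with a peak in at least 3 libraries and with the depth-scaled minimum (adjusted p = 0.0503 to 0.125). On the scale of total reads 18 hnRNP genes fell and 1 rose, and 16 SR genes fell and 1 rose. By peak number, where 1010 of all 6795 genes fell and 638 rose, the hnRNP list had 10 lower and 1 higher and the SR list 14 lower and 1 higher.

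Among the factors that act beside U2AF2, genes moved both ways, beside 31.6% lower and 30.2% higher over all genes tested. Of 28 listed 3' splice site and U2 snRNP factor genes 14 were measured, 9 fell and 2 rose (median -1.96). RBM39, a relative of U2AF2 that shares its type of protein interaction domain, held 5280, 5609 and 5287 normalised reads against 702, 607 and 633 (-3.06 ± 0.11). DDX46, the helicase that prepares the U2 snRNP for the branch point, was at -1.95 ± 0.12, and at 0.15 with the number of peaks per gene. RBM10, a repressor of exon inclusion, rose by 1.35 ± 0.30, from 84.9, 46.6 and 43.2 to 129, 158 and 145, but with the depth-scaled minimum it was at 0.56 with adjusted p = 0.337. Genes of proteins that bind uridine-rich or pyrimidine-rich RNA, and so prefer sequence like that of U2AF2, fell in 16 of 21 measured (of 28 listed) and rose in 0 (median -2.21). FUBP1, a single-stranded nucleic acid binding protein with KH domains, held 5769, 6396 and 5777 against 206, 319 and 267 (-4.52 ± 0.17), and PTBP2, the neuronal polypyrimidine tract binding protein, was at -2.29 ± 0.12. Of 12 listed kinases and phosphatases of SR proteins 11 were measured, 6 fell and 2 rose. CLK1 fell by 3.95 ± 0.23 and PRPF4B by 3.87 ± 0.18, whereas SRPK3, the muscle SR protein kinase, rose from 22.6, 28.5 and 21.6 to 125, 121 and 120 (2.29 ± 0.25), but was at 0.044 by peak number (adjusted p = 0.907). SRPK1 was at -1.03 ± 0.30 (adjusted p = 0.0201), and at 0.11 after quantile normalization, 0.055 by peak number and -0.24 on total reads, none of which passed. Its call was also lost without control replicate 2 (-0.97, adjusted p = 0.0644), control replicate 3 (-0.76, 0.0516) or overexpression replicate 2 (-0.92, 0.0659), and with a peak in at least 3 libraries (adjusted p = 0.0526). By peak number the 3' splice site list had 5 lower and 3 higher, the pyrimidine list 11 and 0, and the kinase list 3 and 2.

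**Figure D5:**
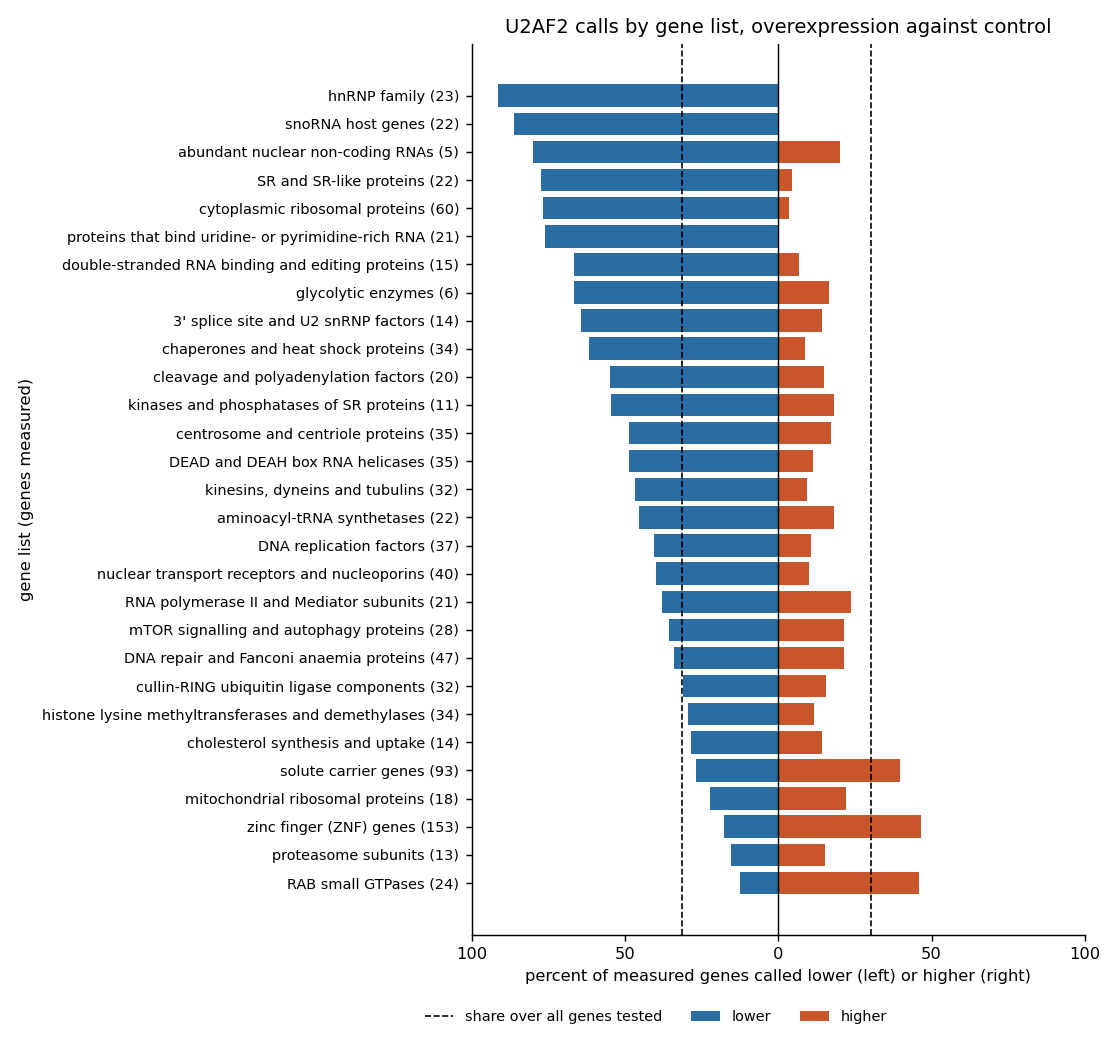
Bars give the percent of measured genes of each list called lower (left) or higher (right), with the number measured in brackets and dashed lines at the shares over all genes tested, 31.6% and 30.2%. The hnRNP list reaches furthest left, with 21 of 23, and the zinc finger list, with 71 of 153, and the RAB list, with 11 of 24, reach furthest right.

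Among genes of other steps of RNA handling, falls outnumbered rises in each list on normalised reads, beside 31.6% lower and 30.2% higher over all genes. DEAD and DEAH box helicase genes fell in 17 of 35 measured (48.6%) and rose in 4 (median -1.23); DDX17 was at -3.33 ± 0.17, DDX39B, which loads export factors on mRNA, at -2.12 ± 0.14, and DHX33 rose by 1.67 ± 0.44. The rise of DHX33 did not pass without overexpression replicate 2 (1.53, adjusted p = 0.0515), by peak number (1.06, 0.0619) or with peaks listed under 1 gene (1.19, 0.142). Of the cleavage and polyadenylation factors, 11 of 20 (55.0%) fell and 3 rose (median -1.41). CPSF6 held 6191, 6528 and 6266 normalised reads against 363, 448 and 369 (-4.01 ± 0.12), PABPN1, the nuclear poly(A) binding protein, was at -1.58 ± 0.13, and PPP1CB, a phosphatase catalytic subunit, rose by 1.52, although with a minimum of reads that grew with depth it was at -0.91. Genes of double-stranded RNA binding and editing proteins fell in 10 of 15 (66.7%) and rose in 1 (median -1.63), with SFPQ at -3.94 ± 0.17 and STAU2 at 1.62 ± 0.21. Nuclear transport receptor and nucleoporin genes fell in 16 of 40 (40.0%) and rose in 4, with a median of -0.45 that became 0.32 on the scale of total reads. In the top 20% by level 9 of its 18 genes fell, near the 48.05% of all genes there, and by peak number 1 fell and 4 rose. With the depth-scaled minimum, however, 24 of 31 tested transport genes fell and 1 rose. The helicase, polyadenylation and double-stranded RNA lists had 8 and 1, 4 and 3, and 3 and 1 lower and higher by peak number. NUP214 fell by 2.57 ± 0.27 (by peak number -0.17, adjusted p = 0.725) and CSE1L, which recycles importin alpha, by 1.97 ± 0.11. XPO5, the exporter of microRNA precursors, rose from 28.3, 67.3 and 23.3 to 224, 212 and 231 (2.61 ± 0.39). XPO1, the main protein exporter, overlapped between conditions at -0.38 ± 0.19. After quantile normalization it was at 0.83 with adjusted p = 0.0033, with the depth-scaled minimum at -1.33 with adjusted p = 0.00305, and without control replicate 1 at -0.58 with adjusted p = 0.0172.

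Most genes that host snoRNAs and most cytoplasmic ribosomal protein genes fell, beside 31.6% lower over all genes. A peak listed under several genes counted under each, so a host gene and its snoRNAs may share reads. Of 26 listed snoRNA host genes 22 were measured, 19 fell and 0 rose (median -3.15), with SNHG1 at -3.94 and GAS5 at -4.22. The list of cytoplasmic ribosomal proteins had 60 of its 88 genes measured, and 46 fell and 2 rose (median -2.14). RPS24 held 1347, 1626 and 1178 normalised reads against 214, 234 and 208 (-2.65 ± 0.15), and RPL7L1, which is a paralog of RPL7 and acts in ribosome assembly, rose by 2.33 ± 0.39. Only 7 of these 60 were in the top 20% by level, and of the other 53, 40 fell. Mitochondrial ribosomal protein genes showed no such majority, with 4 lower and 4 higher of 18 measured of 78 listed. Chaperone genes fell in 21 of 34 and rose in 3 (median -1.58), with HSP90AA1 at -3.83 ± 0.16, CANX, the calnexin gene, at -3.23 ± 0.16, and DNAJC3 at 1.60 ± 0.35 (by peak number 0.86, adjusted p = 0.0815). Aminoacyl-tRNA synthetase genes fell in 10 of 22 and rose in 4, with a median of -0.76 that became 0.02 on the scale of total reads; GARS1 was at -3.23 and SARS1 at 2.39. Of 6 measured glycolytic genes 4 fell and 1 rose, LDHB at -3.90 ± 0.19 and GPI rising by 0.90 ± 0.14, which did not pass with the depth-scaled minimum (0.44, adjusted p = 0.0666) or by peak number (0.76, 0.0599). By peak number the host list had 9 lower and 0 higher, the cytoplasmic ribosomal list 22 and 1, the chaperone list 9 and 3 and the synthetase list 2 and 4.

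Lists from outside RNA biology held both falls and rises, and several lay near the 31.6% lower of all genes tested. DNA repair and Fanconi anaemia genes fell in 16 of 47 (34.0%) and rose in 10 (21.3%), RAD51B at -2.95 ± 0.17, FANCA at -1.42 ± 0.17, PRKDC at -1.16 ± 0.18 and SLX4, a nuclease scaffold, at 2.48 ± 0.36; on the scale of total reads 6 fell and 20 rose. FANCA and PRKDC turned to 0.085 (adjusted p = 0.743) and 0.51 (0.0508) after quantile normalization. By peak number they were at -0.046 (0.898) and 0.38 (0.209), and on total reads PRKDC was at -0.38 (0.105). DNA replication genes fell in 15 of 37 (40.5%) and rose in 4, POLD3 at -4.65 ± 0.41, RFC3 at -3.85 ± 0.11 and ORC1 at 1.61 ± 0.24 (by peak number 0.39, adjusted p = 0.344); on the scale of total reads 8 fell and 13 rose. Histone lysine methyltransferase and demethylase genes fell in 10 of 34 (29.4%) and rose in 4, EZH2 at -3.49 ± 0.13 and ASH1L at 2.24 ± 0.65, whose call was lost without overexpression replicate 1 (2.13, adjusted p = 0.057) and with a peak in at least 3 libraries (0.0519). Centrosome genes fell in 17 of 35 (48.6%) and rose in 6, CEP72 at -4.28 ± 0.37 and CEP290 at -3.73 ± 0.33. Kinesin, dynein and tubulin genes fell in 15 of 32 (46.9%) and rose in 3, with DNAH17 at 2.36. Cullin-RING ligase genes fell in 10 of 32 (31.2%) and rose in 5, with KLHL5 at 1.56, and RNA polymerase II and Mediator genes fell in 8 of 21 (38.1%) and rose in 5, with MED17 at 1.75. Proteasome genes had 2 lower and 2 higher of 13 (15.4% each), PSMA1 at -3.07 and PSMA5 at 1.20. Genes of mTOR signalling and autophagy fell in 10 of 28 (35.7%) and rose in 6, with RICTOR at 0.68 ± 0.18. Cholesterol genes fell in 4 of 14 (28.6%) and rose in 2: LSS at -4.99 ± 0.40 and HMGCS1 at -3.74 ± 0.28, both enzymes of synthesis, against 1.15 ± 0.22 for the synthesis enzyme CYP51A1. On the scale of total reads the medians of the repair, replication, methyltransferase, motor, ligase, mTOR, proteasome, mitochondrial ribosome and cholesterol lists turned from below 0 to above it. By peak number the repair list had 1 lower and 12 higher, the ligase list 0 and 8, the methyltransferase list 5 and 10 and the centrosome list 5 and 7, so falls no longer outnumbered rises in these. With the depth-scaled minimum falls did outnumber rises in these lists. The repair list then had 13 lower and 4 higher of 29 tested, and the ligase list 10 and 2 of 18. The methyltransferase list had 11 and 1 of 17 and the centrosome list 15 and 2 of 25, beside 1486 and 1291 of all 4272 genes. By peak number the replication and mTOR lists had 4 and 4, the polymerase list 1 and 1, the motor list 5 and 1, the proteasome list 1 and 1 and the cholesterol list 3 and 1. None of the rises of KLHL5 (0.48), MED17 (0.58), DNAH17 (0.69), RICTOR (-0.047) and CYP51A1 (-0.39) passed by peak number, and with the depth-scaled minimum RICTOR (0.41, adjusted p = 0.057) and PSMA5 (0.48, 0.108) did not pass.

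Zinc finger, solute carrier and RAB genes had more rises than falls on normalised reads, beside 30.2% higher and 31.6% lower over all genes. Of 153 measured zinc finger genes 71 (46.4%) rose and 27 (17.6%) fell, with a median log2 change of 0.83, and in the top 20% by level 17 of 29 rose, against 404 of 1359 (29.73%) of all genes there. The direction of this median held with total reads (1.61), quantile normalization (0.82), a minimum of reads that grew with depth (0.66) and the number of peaks per gene (0.25), by which 23 rose and 16 fell. Solute carrier genes rose in 37 of 93 (39.8%) and fell in 25 (26.9%, median 0.46), but the number of peaks per gene gave 5 higher and 12 lower. By that number 638 of all 6795 genes rose and 1010 fell. SLC25A36, a mitochondrial pyrimidine nucleotide carrier, fell by 4.09 ± 0.15, and SLC13A5, a citrate transporter, rose from 25.5, 18.1 and 23.3 to 109, 121 and 112 (2.31 ± 0.26; by peak number 0.59, adjusted p = 0.0775). RAB small GTPase genes, which direct vesicle traffic, rose in 11 of 24 and fell in 3 (median 0.63), but by peak number 0 rose and 2 fell. RAB4B rose by 1.90 ± 0.29 and RAB1B by 0.60 ± 0.16, while RAB23 fell by 2.18 ± 0.39. By peak number RAB4B was at 0.88 (adjusted p = 0.0795) and RAB1B at -0.19 (0.649), and RAB1B did not pass without overexpression replicate 1 (0.59, 0.0557) or 2 (0.55, 0.0593). Of 20 markers of blood, muscle, fibroblast and neuron cells, 1 had a peak in every library, so their part in these results could not be read from the members.

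Some highly covered genes showed no called change, although each of the 3 was called on other scales. HUWE1, a large ubiquitin ligase, held 741, 616 and 459 normalised reads in control and 606, 622 and 568 with overexpression, with a 95% interval of the log2 change from -0.42 to 0.45. With a minimum of reads that grew with depth, however, it was at -1.65 with adjusted p = 0.000326, and it rose on total reads (0.80, 0.0052), after quantile normalization (1.08, 0.00147) and by peak number (1.36, 0.00166). MDM4, a p53 inhibitor, held 673, 670 and 871 against 693, 701 and 684 (interval -0.41 to 0.25), but with total reads as the scale it was at 0.71 with adjusted p = 0.00426 and after quantile normalization at 1.11 (0.000186). LPP, a focal adhesion protein, held 713, 593 and 688 against 724, 746 and 745 (interval -0.13 to 0.45), but rose by 0.94 (adjusted p = 0.000473) on total reads and by 1.38 (6.92e-05) after quantile normalization.

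The U2AF2 change differed from the SRSF1 change in the same cells for many genes. SRSF1 libraries were shallower, so 1650 genes had a peak in all 12 libraries, and in 862 of them (52.2%) the interaction passed, with the U2AF2 change below in 465 (28.2%) and above in 397 (24.1%). This balance depended on the scale: with total reads 1051 genes passed, with the U2AF2 change below in 305 and above in 746. The named examples were chosen after their values were seen. SNORD97 held 34.6, 66.6 and 59.5 normalised reads of SRSF1 in control and 139, 113 and 144 with overexpression, a rise without overlap while its U2AF2 signal fell, and the difference was -7.80 ± 0.71 (adjusted p = 1.7e-06). EIF4A2 went from 145, 130 and 230 to 498, 485 and 439 in SRSF1 (difference -7.21 ± 0.52). On PRPF4B the SRSF1 values were 21.5, 11.7 and 6.49 against 72.3, 77.5 and 87.3 (difference -6.50 ± 0.49). Differences of the same sign were found for ERBB4 (-5.96 ± 0.51), CANX (-5.84 ± 1.05), HNRNPH1 (-5.78 ± 0.31) and SRSF11 (-5.69 ± 0.55).

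Other genes had the U2AF2 change above the SRSF1 change, or differences that did not pass. PRR11 rose in U2AF2 and held 9.36, 13.3 and 7.57 against 16.4, 5.12 and 7.52 in SRSF1, with overlap (difference 3.20 ± 0.72, adjusted p = 0.00286), and for ZNF345 the difference was 2.71 ± 0.65. SRPK1 had the larger loss in SRSF1, from 111, 223 and 115 to 14.2, 28.2 and 25.6 (difference 1.62 ± 0.53, adjusted p = 0.0219), but without U2AF2 control replicate 1 the difference was 1.23 and did not pass (adjusted p = 0.0605). The difference did not pass for U2AF2 at -0.84 ± 0.47 (adjusted p = 0.148), U2AF1 at 0.42 ± 0.45 (adjusted p = 0.457) and PABPN1 at -0.16 ± 0.31 (adjusted p = 0.68).

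The skipped exons whose inclusion changed in the authors' deposited table were read as whole spans, from the first to the last base of the event, because exon positions within a span were not used here. Spans of the 155 events with more skipping under overexpression held 34560, 35920 and 34230 normalised U2AF2 reads in control and 6870, 7387 and 6598 with overexpression. For the 57 events whose span had a peak in every library, 44 had a log2 change below 0 and 13 above (median -1.29). Spans of the 96 events with more inclusion held 6213, 7450 and 7369 against 2626, 2782 and 2509, and in 22 of them each library had a peak, 15 being below 0 and 7 above (median -0.97). In both directions every control library lay above every overexpression library. Spans differ in length and in number between the directions, so their sums were not compared with each other. Other spans of like level were not read, so these counts have no background of their own. Of genes in the highest of 5 level groups, 47.9% fell and 29.9% rose. These shares are limma calls and the span counts are signs of the change alone, so they are not comparable. A link between U2AF2 signal and exon inclusion was not tested.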

How the data were processed

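The members and gene lists were chosen with earlier results of these data known. Per the file headers, the deposited peaks come from CLIPper, run by the authors on each library after TopHat alignment to hg19 and removal of repeat reads. The submitters' processing notes name TopHat and Bowtie2 without versions. Each deposited peak name ends with a read number, and U2AF2 overexpression replicate 3 lists peaks from 3 reads upwards under versioned gene IDs, whereas the other U2AF2 libraries start at 6. Peaks of at least 6 reads were kept in all 6 libraries, and their reads were summed per gene ID without its version. A peak listed under several genes counted under each. Sums were divided by median-of-ratios size factors, from 0.353 to 2.80, computed on genes that had a peak in all 6 libraries. A pseudocount of 1 was added before taking log2. limma 3.58.1 in R 4.3.3 fitted these values (lmFit, then eBayes with a trend), with condition as the only term, two-sided, with Benjamini-Hochberg adjustment over all genes and a threshold of 0.05. The read numbers are sums over called peaks and not counts of all reads on a gene, so a count model was not used. Per library, depth was 702563 to 1158060 reads in control and 2317615 to 3291468 with overexpression. No sequence-based duplicate removal could be checked from the files.

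For library shares an exact permutation test (two-sided) was used, which cannot go below p = 0.1 with 3 against 3. The difference from the SRSF1 change was tested as the protein-by-condition interaction in 12 libraries. GENCODE release 29 (GRCh38) gave gene type, length and snoRNA sequence by gene ID only, and its coordinates were not used. Sites are merged overlapping peaks of 1 strand. In the authors' deposited table of skipped exons, inclusion is a fraction per library, the difference a signed score and the Bayes factor a ratio, and only the direction and span of each event were used. The named genes were the 10 steepest falls and rises that passed the test without overlap and had a mean of at least 50. To these were added the 10 genes with the most normalised reads, 5 core splicing genes and the leading genes of each list. The last were 5 genes whose 95% interval lay within 0.5 of 0. This gave 126 genes, and 25 of them are not reported here. Alternatives covered scale, minimum reads, filters, pseudocount, peak numbers, shared peaks and each library left out. Other steps ran in Python 3.11.15 (pandas 2.3.3, numpy 2.4.6, matplotlib 3.10.9, scipy 1.17.1).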

Additional observations from a re-analysis of the deposited data

Results flagged for a closer look

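The U2AF2 and SRSF1 changes under the same overexpression differed by the interaction test in 862 of 1650 genes. The examples were chosen after their values were seen. The U2AF2 change was below the SRSF1 change by a log2 difference of -7.80 on SNORD97, -7.21 on EIF4A2, -6.50 on PRPF4B, -5.96 on ERBB4, -5.84 on CANX, -5.78 on HNRNPH1 and -5.69 on SRSF11. It was above the SRSF1 change by 3.20 on PRR11, 2.71 on ZNF345 and 1.62 on SRPK1, which was 1.23 and did not pass without U2AF2 control replicate 1 (limma adjusted p = 0.0605). The SRSF1 control libraries correlated with the U2AF2 control libraries with r of 0.50 to 0.62 over 1345 genes, and the SRSF1 overexpression libraries with the U2AF2 overexpression libraries with r of 0.14 to 0.23.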

How the results depend on the processing

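The 4197 calls, 2145 lower and 2052 higher, became 2448 (1249 and 1199) with peaks of at least 12 reads, 2777 (1486 and 1291) with a minimum of reads that grew with depth, and 1648 (1010 and 638) by peak number. Total reads as the scale gave 1340 lower and 3263 higher, at least 20 normalised reads in every library gave 1416 lower, and a peak in at least 3 libraries gave 3615 higher. The cause was not tested, apart from the smaller numbers of genes tested, 3286, 4272 and 4931, under the stricter minima. Without 1 library at a time the calls ranged from 3312 to 4352. On total reads the difference between the U2AF2 and SRSF1 changes passed in 1051 of 1650 genes. The U2AF2 change was then below in 305 and above in 746, against 465 and 397 in the main fit. The difference passed in 438 of 692 genes with the depth-scaled minimum, against 862 of 1650, and in 730 to 803 without 1 library. With that minimum, overexpression minus control turned to -680 genes with a peak and -0.466 peaks per gene.

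Replicate numbers did not pair the libraries: deviations of same-numbered libraries correlated with r of -0.0099 to 0.014, and 1 of 6 libraries correlated best with its own number. With the replicate block 4005 genes were called, and 848 for the difference from SRSF1. The block changed no call among the 101 genes printed.

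Of these 101 genes, 66 kept direction and call under every alternative that could be fitted, and 14 turned in at least 1. After quantile normalization SLIT2 was at 0.77, MDM4 at 1.11, XPO1 at 0.83, PRKDC at 0.51, SRPK1 at 0.11 and FANCA at 0.085. By peak number SRSF10 was at -0.996, CYP51A1 at -0.39, RAB1B at -0.19, RICTOR at -0.047, XPO1 at 0.55, MDM4 at 0.47, PRKDC at 0.38, DDX46 at 0.15 and SRPK1 at 0.055. On total reads MDM4 was at 0.71 and XPO1 at 0.40. With the depth-scaled minimum HUWE1 was at -1.65, PPP1CB at -0.91 and LPP at -0.26. HUWE1 was at -0.31 with peaks of at least 12 reads and at -0.016 with every deposited peak. Without 1 library MDM4 ranged from -0.16 to 0.035 and HUWE1 from -0.18 to 0.16. Of the 25 genes not printed, 8 turned in an alternative. The planned values near 3' splice sites of the skipped exons were not run, because the event table gives whole spans.

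The shallower control libraries limit what can be seen of genes with low signal: 6795 of 16542 genes had a peak in every library, and a gene first bound with overexpression is not among them. Read numbers in peaks do not show duplicates.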

Other observations

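The calls were spread unevenly over the chromosomes, which was noticed in the data and is given as a description. On chromosome 21, 56 of 95 genes (58.9%) fell and 16 rose, and on chromosome 13, 76 of 155 (49.0%) fell and 29 rose. On chromosome 19, where many zinc finger genes lie, 170 of 343 (49.6%) rose and 60 fell, and on chromosome 22, 74 of 155 (47.7%) rose and 30 fell. Over all genes 31.6% fell and 30.2% rose. HMGN1, a nucleosome binding protein of chromosome 21, held 2863, 3319 and 2778 normalised reads in control and 49.3, 124 and 79.2 with overexpression (-5.22 ± 0.31, limma adjusted p = 1.19e-05). ARGLU1, a splicing coactivator of chromosome 13, held 5970, 6712 and 4709 against 270, 408 and 262 (-4.22 ± 0.21).

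Several genes with high signal under overexpression belong to near-identical copies, so their reads are uncertain. These genes were picked after their values were seen. POLR2J2, an RNA polymerase II subunit copy, held 2221, 2213 and 2067 normalised reads in control and 3149, 3472 and 3369 with overexpression (0.62 ± 0.11), and POLR2J3 held 1301, 1248 and 1077 against 1570, 1716 and 1401 (0.37 ± 0.13). RASA4, a Ras GTPase-activating protein, held 1793 and 2015 in overexpression replicates 1 and 2 and 484 in replicate 3, and its copy RASA4B held 1965, 2102 and 351. In control RASA4 held 1471, 1390 and 1308. Replicate 3 is the library deposited with versioned gene IDs, and the part of its annotation in these values was not tested.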
